A study of Mus musculus with 12 samples.

Results

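The calcium-activated chloride channel regulators, the Clca genes, were measured by RNA sequencing in mouse colonic mucosa. They were chosen as the rows whose gene symbol is Clca followed by a digit, which gave 6 of 38087 genes with an Ensembl identifier. All 6 members passed the filter on low counts, among 13889 genes tested. The study asks how chromosome instability acts on the colon and compared 6 wild type libraries with 6 Sgo1-/+ libraries. Sgo1 encodes shugoshin 1, which guards the cohesion of sister chromatids at the centromere. Mice of both genotypes had been given the colon carcinogen azoxymethane at 4 mg/kg, 2 times a week from week 8 to week 12 of life, and mucosa was taken at 9 months. No untreated mice were among the groups, so every level here is a level after azoxymethane. The labels do not tie each library to a mouse of its own, so p-values measure the spread between these libraries, which may be technical in part.

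CLCA proteins were first named as calcium-activated chloride channels and are now known as secreted or membrane-attached proteins that cleave themselves with a built-in metalloprotease domain. The mouse gene now called Clca1 makes a product of goblet cells, which is secreted with mucus and raises the surface level of the true channel Ano1. The gene now called Clca4a is known from intestinal enterocytes, and the one now called Clca2 from squamous epithelium. The gene now called Clca3b was first described in tissues rich in smooth muscle.

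The deposited rows carry older symbols, and the present name of a member can be the old name of another. The row Clca3 (ENSMUSG00000028255, "chloride channel calcium activated 3") is now Clca1. The row Clca6 (ENSMUSG00000068547, "chloride channel calcium activated 6") is now Clca4a. The row Clca4 (ENSMUSG00000037033, "chloride channel calcium activated 4") is now Clca3b. The row Clca2 (ENSMUSG00000028262, "chloride channel calcium activated 2") is now Clca3a2. The row Clca1 (ENSMUSG00000056025, "chloride channel calcium activated 1") is now Clca3a1. The row Clca5 (ENSMUSG00000036960, "chloride channel calcium activated 5") is now Clca2. The older symbols are used from here on, and a pair of further family rows, AI747448 (now Clca4b) and Gm6289 (now Clca4c-ps), stand outside the rule.

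The members lie side by side on the minus strand of chromosome 3 in build mm10, within 369 kb. In order of position, Clca1 spans 144729677 to 144760977, Clca2 spans 144796559 to 144819494 and Clca4 spans 144822623 to 144849357. Clca6 follows at 144952480 to 144975045, Clca3 at 145004537 to 145032776 and Clca5 at 145070265 to 145099104. The 3 most abundant members are not next to each other as a block, since AI747448 and Gm6289 lie between Clca4 and Clca6. Gm16233, annotated as antisense on the plus strand at 144947561 to 144954878, overlaps the 3′ end of Clca6. Whether counting used strand is not stated in the labels or files used here, so reads of that overlap cannot be assigned.

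Some members are near copies of each other, which bears on how far their counts can be told apart. The longest coding transcripts of Clca1 and Clca2 were 96.4% identical over 3427 aligned bases, and 23.6% of the 50-base words of Clca1 also occurred in Clca2. Clca6 and AI747448 were 95.6% identical, with 20.9% of Clca6 words shared. Clca4 was 82.1% identical to Clca1 and shared 4.39% of its words with it, and 5.17% with Clca2. Clca3 and Clca5 shared 0 such words with any other family row. The levels of Clca1, Clca2, Clca4, Clca6, AI747448 and Gm6289 are therefore uncertain where reads fell in shared stretches. Those of Clca3 and Clca5 are not touched by this.

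The upstream part of the Clca4 promoter is shown because the genotype comparison turns on this member. It holds the bases from -250 to -101 relative to the gene start in RefSeq (build GRCm38.p6), at chr3:144849403-144849552 on the minus strand, written 5′ to 3′. Capitals mark the letters TGTTTAC, known as a motif of FOXA factors.
Clca4: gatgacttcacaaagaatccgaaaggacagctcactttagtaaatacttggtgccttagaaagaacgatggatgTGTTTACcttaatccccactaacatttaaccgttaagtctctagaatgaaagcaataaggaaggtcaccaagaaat
Windows from 250 bases before to 50 after the start were searched on both strands for Clca1, Clca4, Clca5 and AI747448. The FOXA letters occurred in the Clca4 window at position -176 and in 3.65% of 32851 promoters. The letters AGATAA, known as a motif of GATA factors (11.2% of promoters), TTTATGG (a CDX motif, 2.75%) and CCAATAAA (a motif of HOX13 factors, 1.12%) occurred in 0 of the 4 windows. TATAAA (the letters of the TATA box, 13.6%) and GTTAAT (an HNF1 motif, 7.1%) occurred in 1 window each, that of AI747448. The TATAAA matches, at -166 and -119, and the GTTAAT match, at -223, lay on the strand opposite to the gene.

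The family was dominated by a single goblet cell gene. Levels between genes were compared as CPM, a gene's counts scaled to a common library size, per kb of the longest coding transcript, over all 12 libraries. Clca3 was at 755 ± 165 CPM per kb (SD, n = 12), Clca6 at 138 ± 71.0 and Clca4 at 23.9 ± 12.1. AI747448 followed at 3.14, Clca2 at 1.47, Clca1 at 1.02 and Clca5 at 0.607 CPM per kb. In level per kb Clca3 was above Clca6, Clca6 above Clca4 and Clca4 above AI747448 in 12 of 12 libraries (adjusted p = 9.77e-04 each, exact two-sided sign-flip test, over 6 neighbouring pairs). The lower steps were less regular from library to library. AI747448 was above Clca2 in 10 of 12 libraries (adjusted p = 0.0211), Clca2 above Clca1 in 8 (adjusted p = 0.0254) and Clca1 above Clca5 in 9 (adjusted p = 0.0117, exact sign-flip test for each). The order of Clca2, Clca1 and AI747448 rests on near copies and carries the uncertainty given above. Gm6289 had a mean of 5.43 counts and did not pass the filter.

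**Figure D1:**
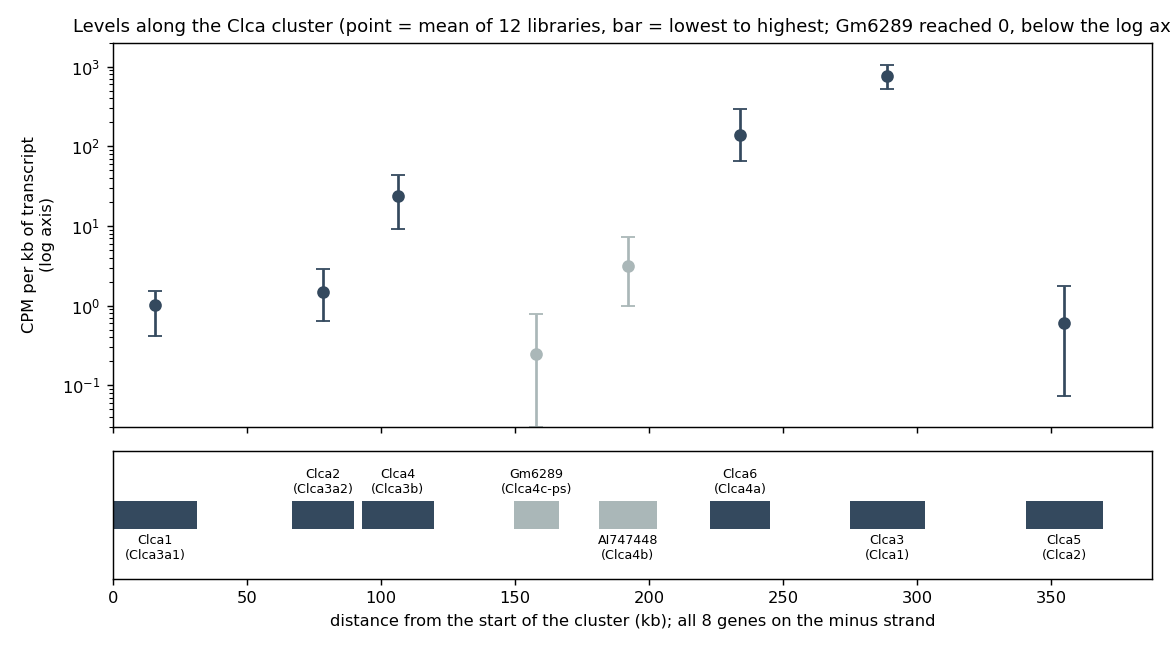
Mean level of each Clca family row over 12 libraries in CPM per kb of transcript (log axis, bars from the lowest to the highest library), above a map of the genes by distance in kb. Clca3 at 755, Clca6 at 138 and Clca4 at 23.9 CPM per kb stand above the other rows, and grey marks rows outside the rule.

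As a share of the counts of the 6 members, Clca3 took 82.6% ± 6.91 in wild type against 86.0% ± 5.23 in Sgo1-/+ (n = 6, SD). Clca6 took 15.3% ± 6.75 and 10.3% ± 5.51, and Clca4 took 1.72% ± 0.82 and 3.35% ± 1.09. Clca2, Clca1 and Clca5 together were a very small part, with means of at most 0.189% each. The summed level of the members ran from 2474.5 to 4254.5 CPM in wild type and from 2211 to 4115.8 CPM in Sgo1-/+, so that the groups overlapped almost fully.

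The comparison of genotypes asked which members differed in Sgo1-/+ mucosa. In edgeR's quasi-likelihood test 0 of 6 members passed a Benjamini-Hochberg adjusted p of 0.05, as did 0 of 13889 genes (0.0%). At an unadjusted p under 0.05 there was 1 member, Clca4, which was higher in Sgo1-/+, beside 9.65% of all genes in either direction, 4.56% higher and 5.08% lower. DESeq2 called 1 member, again Clca4, beside 0.216% of genes, and limma-voom called 0. The log2 change was above 0 for 4 of 6 members, beside 49.0% of genes. Its median over the members was 0.19, beside -0.0056 over all genes tested. In bulk tissue, fewer cells of a type and less RNA per cell cannot be told apart, which holds for every level below.

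Clca4 (now Clca3b) was the member with the greatest difference on the log2 scale. Its level ran from 30.7 CPM over a median of 48.7 to 79.8 CPM in wild type, and from 52.2 over 123 to 146 CPM in Sgo1-/+. Sgo1-/+ replicates 1, 2, 4 and 5 stood above every wild type library, and wild type replicates 1, 3, 4 and 6 stood below every Sgo1-/+ library. The groups still overlapped, because Sgo1-/+ replicate 3 (52.2 CPM) and replicate 6 (74.4 CPM) lay below wild type replicate 2 (79.8 CPM). All 6 Sgo1-/+ libraries were above the wild type median. Non-overlapping groups were found for 0.346% of all genes, 0.223% with Sgo1-/+ the higher, and for 0 of the 6 members.

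The mean of Clca4 was 51.8 ± 16.6 CPM in wild type against 109 ± 37.6 CPM in Sgo1-/+ (n = 6, SD). The log2 change in edgeR was 1.07 ± 0.26 (SE; approximate 95% interval 0.56 to 1.58), a 2.10-fold difference. It had an unadjusted p of 0.00108, which ranked 27 among 13889 genes, and an adjusted p of 0.443 in edgeR. DESeq2 gave the same gene a log2 change of 1.07 ± 0.27 with an adjusted p of 0.0409, past the threshold. In limma-voom the log2 change was 1.03 with an adjusted p of 0.422. Thus the size of the difference was alike in the 3 tools and the call was not. The counts behind it ran from 122 to 1821 per library.

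**Figure D2:**
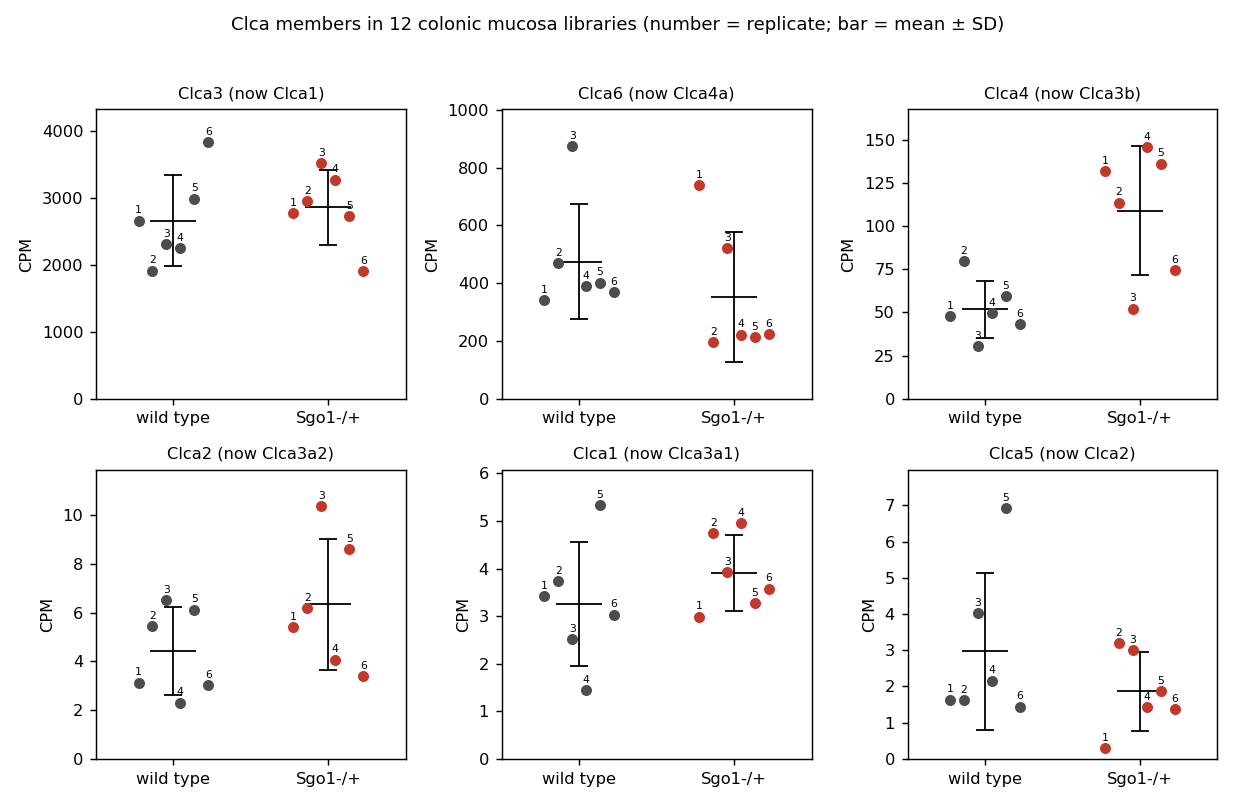
CPM of each Clca member (linear axes from 0) in 6 wild type and 6 Sgo1-/+ libraries, each point a library with its replicate number, with mean ± SD. For Clca4 4 Sgo1-/+ libraries lie above every wild type library, while the groups overlap for all 6 members.

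Clca3 (now Clca1), the goblet cell product, had overlapping levels in the genotypes. It ran from 1915 over a median of 2482 to 3833 CPM in wild type and from 1904.7 over 2867 to 3525 CPM in Sgo1-/+. The ranges nearly coincided, with wild type replicate 6 the highest and Sgo1-/+ replicate 6 the lowest of all. Means were 2659 ± 683 and 2861 ± 559 CPM (SD, n = 6 each), with a log2 change of 0.11 ± 0.21 (SE; 95% interval -0.30 to 0.51) and an adjusted p of 0.887 in edgeR. The interval leaves room for a difference of either sign. At 9173 counts or more per library, counting error was not the limit for this gene.

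Clca3 was also set against Muc2, the main secreted mucin of goblet cells, within each library. The log2 ratio of Clca3 to Muc2 was -0.94 ± 0.60 in wild type against -0.93 ± 0.91 in Sgo1-/+ (n = 6, SD). The difference of 0.0067 had an exact two-sided permutation p of 0.989, and its sign turned when single libraries were left out (-0.20 to 0.30). Each genotype held a wide range of this ratio, from -1.95 to -0.40 in wild type and from -2.40 to -0.048 in Sgo1-/+. Clca3 and Muc2 thus did not keep a fixed proportion from library to library. The library with the most Muc2, Sgo1-/+ replicate 6 (10039 CPM), had the lowest Clca3 (1904.7 CPM). The library with the least Muc2, wild type replicate 3 (3046 CPM), had 2305 CPM of Clca3. Their relation over the libraries was not tested.

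Clca6 (now Clca4a), the enterocyte gene, was split unevenly within Sgo1-/+. It ran from 342 over a median of 396 to 874 CPM in wild type and from 195 over 223 to 739 CPM in Sgo1-/+. Sgo1-/+ replicates 2, 4, 5 and 6 were at 195 to 224 CPM, below every wild type library, while replicates 1 (739 CPM) and 3 (521 CPM) were above all wild type libraries but replicate 3 (874 CPM). Means were 474.5 ± 200.1 and 352.5 ± 225.9 CPM (SD, n = 6 each), with a log2 change of -0.43 ± 0.36 (SE) and an adjusted p of 0.708 in edgeR. The log2 change was -0.15 once wild type replicate 3 was left out and -0.78 once Sgo1-/+ replicate 1 was, so single libraries moved it by more than 1.5 times. Scaled by library totals alone it was -0.073. The summed level of Clca6, AI747448 and Gm6289, which does not depend on how shared reads were split, was 485 ± 201 CPM in wild type against 362 ± 228 CPM in Sgo1-/+ (n = 6, SD), and 97.4% of it was Clca6.

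Within libraries, Clca6 was compared with Clca3 and with Krt20, a keratin of differentiated colonocytes. The log2 ratio of Clca6 to Clca3 was -2.53 ± 0.71 in wild type against -3.21 ± 0.78 in Sgo1-/+ (n = 6, SD), a difference of -0.68 (exact permutation p = 0.152, adjusted p = 0.455 over 3 ratios). Without Sgo1-/+ replicate 1 that difference was -0.93 (exact permutation p = 0.0411, unadjusted). With any other single library left out the exact permutation p lay between 0.0887 and 0.294, unadjusted. The log2 ratio of Clca6 to Krt20 was -1.29 ± 0.44 and -1.42 ± 0.55, a difference of -0.13 (exact permutation p = 0.656). Krt20 itself had a log2 change of -0.43 ± 0.16 (SE; unadjusted p = 0.0194, adjusted p = 0.486 in edgeR), beside -0.43 for Clca6. At an unadjusted p under 0.05 in edgeR 5.08% of all genes were lower. This ratio therefore does not set Clca6 against an unchanging level. None of the 3 ratios passed with all libraries.

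Clca2, Clca1 and Clca5 were at a few CPM, and none passed the test. Clca2 (now Clca3a2), known from the involuting mammary gland, was at 4.43 ± 1.82 CPM in wild type against 6.35 ± 2.69 CPM in Sgo1-/+, with a log2 change of 0.52 ± 0.33 (SE) and an adjusted p of 0.626 in edgeR. Its highest library was Sgo1-/+ replicate 3 at 10.4 CPM and its lowest wild type replicate 4 at 2.31 CPM. Clca1 (now Clca3a1) was at 3.25 ± 1.30 and 3.91 ± 0.80 CPM, with a log2 change of 0.28 ± 0.27 and an adjusted p of 0.744 in edgeR. The sum of these near copies does not depend on how reads shared between them were split, but it can depend on reads shared with Clca4. This sum was 7.68 ± 2.75 CPM in wild type against 10.3 ± 2.66 CPM in Sgo1-/+ (n = 6, SD). It ran from 3.75 to 11.5 and from 6.97 to 14.3 CPM, so the groups overlapped here too.

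Clca5 (now Clca2), the squamous gene, was the lowest member per kb and varied widely between libraries. It ran from 1.44 over a median of 1.90 to 6.93 CPM in wild type and from 0.289 over 1.66 to 3.20 CPM in Sgo1-/+. The lowest value, in Sgo1-/+ replicate 1, rests on 2.97 counts. The log2 change was -0.63 ± 0.51 (SE) with an adjusted p of 0.700 in edgeR, and -0.22 without wild type replicate 5, the highest library. It was -0.013 with the mitochondrial-like share, described below, as a covariate, and -0.071 without the 3 libraries of highest share. The coefficient of variation of Clca5 was 72.7% in wild type and 58.6% in Sgo1-/+, beside 42.2% and 64.1% for Clca6 and 25.7% and 19.5% for Clca3. Of 11 keratinocyte and squamous epithelium genes, 1 passed the filter on low counts, Krt10, and the list summed to between 2.30 and 7.90 CPM per library.

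**Figure D3:**
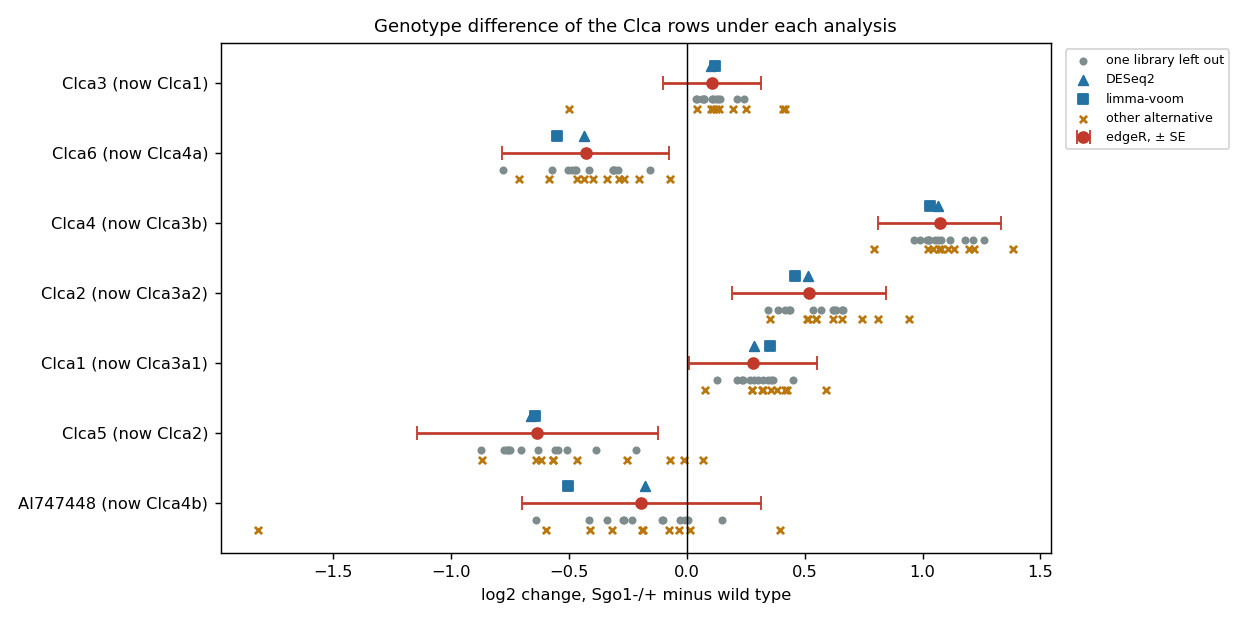
Log2 change of each Clca member and of AI747448, Sgo1-/+ minus wild type, in edgeR (± SE), DESeq2, limma-voom, with each library left out in turn and under the other alternatives. The Clca4 values lie between 0.79 and 1.38, while those of Clca3, Clca5 and AI747448 fall on both sides of 0.

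AI747448 (now Clca4b) was at 9.95 ± 5.64 CPM in wild type against 8.85 ± 7.62 CPM in Sgo1-/+ (n = 6, SD). Its highest values, 21.5 CPM in Sgo1-/+ replicate 3 and 20.1 CPM in wild type replicate 1, came from opposite genotypes.

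The anoctamins and bestrophins, families that include calcium-activated chloride channels, were taken as a list of 13 genes. Not every gene of the list is known as such a channel. Of the 13, 8 passed the filter, 0 passed the adjusted threshold, and 6 had a log2 change above 0 (median 0.29), beside 49.0% of all genes. Ano1, the epithelial and pacemaker-cell channel that the goblet product acts on, was at 59.2 ± 18.5 CPM in wild type against 87.9 ± 42.7 CPM in Sgo1-/+ (n = 6, SD), a log2 change of 0.57 ± 0.31 (SE; adjusted p = 0.569 in edgeR). Sgo1-/+ replicates 2, 4 and 5 had 115 to 141 CPM of Ano1, above every other library. Best2, a bestrophin of colonic goblet cells, had a log2 change of 0.79 ± 0.47, on 6.46 and 11.0 CPM. Ano7 had a log2 change of 0.37 ± 0.16 (unadjusted p = 0.0350, adjusted p = 0.4996 in edgeR). It was the single list member under an unadjusted 0.05, beside 4.56% of all genes higher. The phospholipid scramblase Ano6 had a value of 0.30 ± 0.18 and Ano8 one of 0.28 ± 0.24. Ano9 was at -0.13 ± 0.13 and Ano10 at 0.011 ± 0.12, and their signs turned under other scalings or covariates (up to 0.20 and down to -0.12). Ano4 was at -0.41 ± 0.52 and reached 0.081 when the mitochondrial-like share was fitted too. Leaving out Sgo1-/+ replicate 3 gave -1.11 for Ano4, and leaving out wild type replicate 3 gave -0.018.

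Lists of the cells known to make these genes were described beside them, with 0 genes past the adjusted threshold in any list. At an unadjusted p under 0.05 in edgeR, 1 goblet cell gene was higher, 2 absorptive colonocyte genes were lower, and 1 goblet regulator went each way. Among all genes 4.56% were higher and 5.08% lower at that level. Of 14 goblet cell genes tested, 10 had a log2 change above 0 (median 0.17), beside 49.0% of all genes. Muc2 was at 0.18 ± 0.32 and Fcgbp, a mucus protein, at 0.18 ± 0.21, close to the 0.11 of Clca3. Of 14 absorptive colonocyte genes, 12 were below 0, with a median of -0.22, beside -0.43 for Clca6. The carbonic anhydrases Car1 and Car4 were at -0.40 ± 0.32 and -0.35 ± 0.23. The summed absorptive level ran from 10741 to 18261 CPM in wild type and from 9754 to 15085 CPM in Sgo1-/+. Of 14 type 2 cytokine and goblet regulators, 10 passed the filter and 6 were above 0, with a median of 0.10. Klf4, a transcription factor of goblet differentiation, was at -0.21 ± 0.26 and the interleukin 13 receptor subunit Il13ra1 at 0.23 ± 0.24.

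Lists of cells beneath the epithelium were low in level. Smooth muscle genes summed to between 35.9 and 60.5 CPM per library, with 3 of 7 tested above 0 and a median of -0.37, beside 1.07 for Clca4. Tagln was at 0.24 ± 0.16 and Synpo2 at -0.53 ± 0.46. Of 6 lymphatic and blood endothelium genes tested, 5 were above 0 (median 0.24), with Vwf at 0.12 ± 0.21 and Pecam1 at 0.30 ± 0.25. Of 6 fibroblast genes tested, 3 were above 0 (median 0.022), with Col3a1 at 0.20 ± 0.25 and Col1a2 at -0.14 ± 0.29. Of 5 T cell and plasma cell genes tested, 4 were below 0 (median -0.63), with Igkc at -0.64 ± 0.23 and Igj at -0.63 ± 0.26. At an unadjusted p under 0.05 in edgeR 3 of them were lower, beside 5.08% of all genes. No gene of these lists was at 0 in every library. Their part in the Clca values was not tested.

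Markers of position along the colon are set beside Clca4 and Clca6. Of 4 distal colon genes tested, all were above 0 (median log2 change 1.04), beside 49.0% of all genes. At an unadjusted p under 0.05 in edgeR 2 of them were higher, beside 4.56% of all genes, and 0 passed at an adjusted one. The summed distal level ran from 46.5 to 135 CPM in wild type and from 51.8 to 332 CPM in Sgo1-/+. Hoxb13, a homeobox gene of the distal colon, ran from 23.1 to 65.9 CPM in wild type, while Sgo1-/+ replicates 2, 4 and 5 had 187, 142 and 140 CPM, against 25.7 to 47.4 CPM in replicates 1, 3 and 6. The peptide hormone gene Insl5 was at 11.2 ± 4.66 CPM in wild type against 29.7 ± 17.0 CPM in Sgo1-/+ (n = 6, SD). Clca4 was high in those 3 Hoxb13-rich libraries (114 to 146 CPM) and also in Sgo1-/+ replicate 1 (132 CPM), where Hoxb13 was at 47.4 CPM. Clca6 was at 195 to 222 CPM in the 3 Hoxb13-rich libraries and at 224 CPM in replicate 6, where Hoxb13 was at 25.7 CPM. Of 6 proximal colon genes, all were below 0, with a median of -0.29, and Cyp2c55 and Fabp2 were at -0.42 ± 0.24 and -0.47 ± 0.30. The part of sampling position in the Clca values was not tested.

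**Figure D4:**
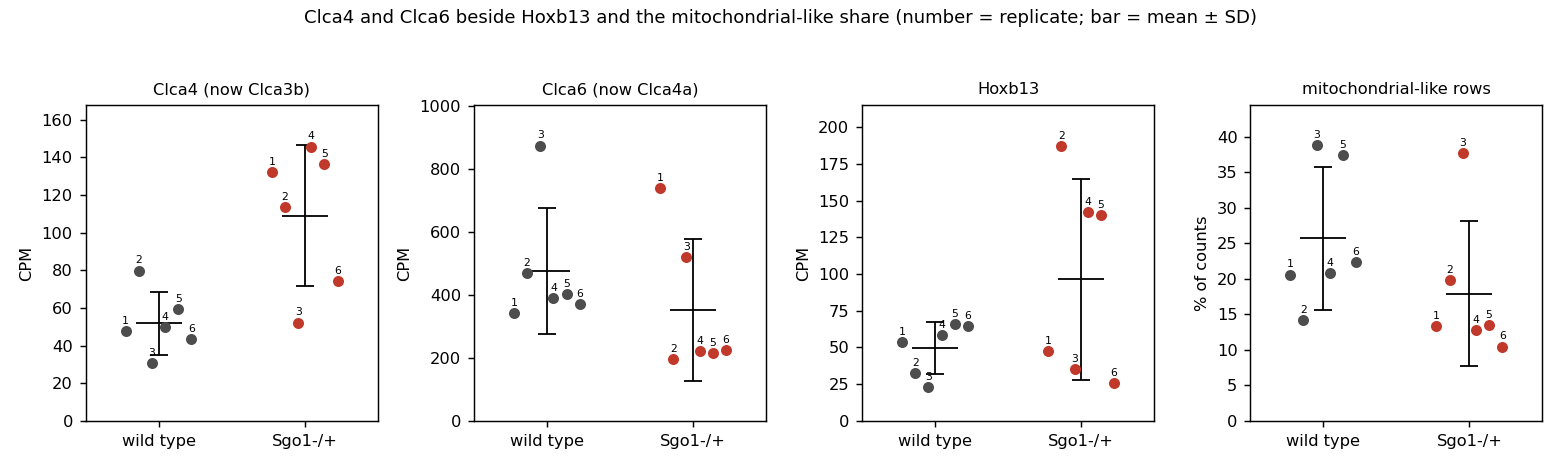
Clca4, Clca6 and Hoxb13 in CPM and the share of counts in mitochondrial-like rows in percent, in 6 wild type and 6 Sgo1-/+ libraries with replicate numbers and mean ± SD. Sgo1-/+ replicates 2, 4 and 5 are high in Hoxb13 and Clca4 and low in Clca6, replicate 1 is high in Clca4 and Clca6 without high Hoxb13, and the replicate 3 of each genotype has its lowest Clca4.

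The libraries differed in depth and in their share of mitochondrial-like rows. Library totals ran from 5414437 to 9937114 counts, and the mitochondrial-like rows Gm13340, Gm13341 and Gm11410 took 10.4% to 38.8% of them. The libraries lowest in Clca4 within each genotype, wild type replicate 3 and Sgo1-/+ replicate 3, had shares of 38.8% and 37.7%. Wild type replicate 5, at 37.4%, had 59.5 CPM of Clca4, the second of its group. The highest of that group, wild type replicate 2 at 79.8 CPM, had its lowest share, 14.2%. Sgo1-/+ replicates 1, 4 and 5, the highest in Clca4 (132 to 146 CPM), had shares of 12.8% to 13.4%. Sgo1-/+ replicate 2 had 19.8% and 114 CPM, and replicate 6 had 10.4% and 74.4 CPM. Shares in Sgo1-/+ replicates 1, 4, 5 and 6 lay below every wild type library, so the share was not balanced between genotypes. With this share as a covariate the Clca4 log2 change was 0.79, and without the 3 libraries of highest share it was 1.13. A suffix in the name of the value column marks 4 of the 12 libraries. Among these 4 the Clca4 log2 change was 1.20, and among the other 8 it was 1.02. Scaling by library totals alone moved the median log2 change of all genes by 0.32 and gave 1.38 for Clca4. The targeted gene, listed as Sgol1, was at 3.65 ± 1.79 CPM in wild type against 2.33 ± 0.41 CPM in Sgo1-/+ (n = 6, SD, exact permutation p = 0.126). The exact permutation p was 0.00649 with wild type replicate 1 left out. With any other single library left out it lay between 0.102 and 0.251.

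Covariation among the members was examined over the libraries. Of 15 pairs of members none passed after adjustment. The largest Pearson r in size was between Clca4 and Clca6, with r = -0.51 (permutation p = 0.0897, adjusted p = 0.675) and rho = -0.45 (permutation p = 0.141) over 12 libraries. Without the 2 libraries farthest from the median of Clca4, r was -0.20, so the relation depended in part on those libraries. With genotype means removed r was -0.34, and it was -0.52 within wild type and -0.26 within Sgo1-/+. By Spearman's rho the largest was that of Clca2 and Clca5, at 0.50 (permutation p = 0.0992, adjusted p = 0.658). For Clca4 and Clca6 r was -0.55 within the 8 libraries without the suffix and -0.12 when scaled by totals alone.

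Genes whose log2 CPM was most like a member over the 12 libraries were found among 12272 genes. They are a description, since they share library and depth with the member and were picked as the highest of many. For Clca4 they were Nans, a sialic acid synthase (r = 0.95, and 0.90 with genotype means removed), Lrig1, a leucine-rich repeat protein of intestinal stem cells (0.94 and 0.91), and Cotl1, an actin-binding protein (0.94 and 0.88). For Clca3 they were the growth factor gene Bmp2 (0.89 and 0.89), Nlrp10 (0.88 and 0.88) and Rhpn2 (0.87 and 0.90). For Clca6 they were Dynlt1-ps1 (0.91 and 0.90), the inositol phosphate kinase Itpk1 (0.91 and 0.90) and the transcription factor Jun (0.90 and 0.90). Clca5 was most like Lman2l (0.94), Rpsa-ps10 (0.94) and Sox4 (0.92), Clca2 most like Zbtb48 (0.93), Yars (0.88) and Bnip2 (0.88), and Clca1 most like Nxpe4 (0.87), Ttl (0.87) and Gys1 (0.86). No gene was named for more than 1 member.

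The genes around the cluster had values of both signs. Within 500 kb of either end lay 7 rows, of which 6 were tested, 2 with a log2 change above 0 and 4 below. Their lowest unadjusted p in edgeR was 0.163. The nearest genes were Sh3glb1 at -0.14 ± 0.14 and Odf2l at -0.25 ± 0.23, and the antisense row Gm16233 inside the cluster was at -0.15 ± 0.34. The nearest tested family rows on either side of Clca4, itself at 1.07, had smaller values. These were Clca2 at 0.52 and, beyond the untested Gm6289, AI747448 at -0.19. The differences between them were not tested.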

How the data were processed

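Messenger RNA of 12 colonic mucosa samples was sequenced on an Illumina MiSeq after TruSeq V2 preparation, per the labels' protocols. The submitters' processing notes list mm10 as the build and DESeq as a tool; aligner, counter and strand setting: not given in the sources used here. The authors deposited a raw column of expected counts, 69.6% of whose positive values were not whole. The deposited normalized column holds log2 values, of which 100% of 463104 were recomputed within 0.001 from median-of-ratios size factors with a floor of 1, minus each gene's median; it was not used for tests.

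Counts were rounded. The 505 rows without an Ensembl identifier (1.79% to 5.40% of counts) were left out. Groups were the labelled genotypes. All genes were fitted with edgeR 4.0.16 in R 4.3.3 (filterByExpr, minimum count 10, minimum total 15; TMM; glmQLFit and glmQLFTest), with Benjamini-Hochberg adjustment over 13889 genes. CPM used TMM library sizes. A count of 5.41 equals 1 CPM in the smallest library before TMM scaling, so low members are imprecise. Intervals are the log2 change ± 1.96 SE, with the SE taken from the F value of the test. They are a normal approximation and are narrower than the test itself would give. Ratios used a pseudocount of 0.5. DESeq2 1.42.0, which gave no adjusted p for 39 genes, limma-voom (limma 3.58.1), other scalings, filters, covariates and library subsets were alternatives. No pair of 30 replicate pairs was identical or within sampling noise (chi-square per degree of freedom at least 14.7). The edgeR step was tested on simulated counts of this comparison (13889 genes): it called 57 of 100 genes set 1 log2 unit apart and 92 of 100 set 2 apart, with 5 of 154 calls on unchanged genes. The simulated counts took the trended dispersion alone. They held no spread particular to a gene and no differences shared by many genes of a library. These rates therefore do not give the power or the false calls in the real libraries.

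Named were all members, the 3 genes most like each (mean of at least 10 counts, predicted genes left out) and the 2 most abundant genes of each list. All tested anoctamins and bestrophins, the nearest flanking genes, Hoxb13 and Sgol1 were named too. AI747448, Gm6289, Gm16233, Insl5 as the second distal gene and the mitochondrial-like rows stand beside them, the last chosen after values were seen. Present gene names are from the NCBI tables, transcripts from GENCODE M21 and promoters from RefSeq. The promoter window of 1 member is not reported here. The members and lists were chosen with earlier results of these data known.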

Additional observations from a re-analysis of the deposited data

Results flagged for a closer look

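Clca6 in wild type replicate 3 was at 874 CPM, while the next wild type library was at 469 CPM. On the log2 CPM scale the gap was 0.664 of the whole range of the group, above Dixon's 95% critical value for a group of 6. The value rests on 3477 counts. The same library had the highest share of mitochondrial-like rows, 38.8%, and the lowest Clca4 and Hoxb13 levels of all 12 libraries. Of 20 groups tested this was the 1 that passed, and chance passes about 1 in 20.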

How the results depend on the processing

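Over 24 alternatives the 6 member log2 changes gave 144 values, of which 141 kept direction and side of the threshold. The exceptions were Clca4 in DESeq2 (1.07, adjusted p = 0.0409) and, among the 4 libraries with the column suffix (an alternative chosen after seeing the data), Clca3 at -0.50 and Clca5 at 0.067. Members called were 1 in DESeq2 and 0 elsewhere. Genes called were 30 in DESeq2, 1 with the mitochondrial-like share as covariate, 1 in the suffix libraries alone and 0 in each other alternative. The Clca4 log2 change ran from 0.79 to 1.38 and its adjusted p from 0.0409 to 0.985, and with a library left out it ran from 0.97 to 1.26. With a library left out, Clca6 ran from -0.78 to -0.15, Clca5 from -0.87 to -0.22, Clca3 from 0.038 to 0.24, Clca2 from 0.34 to 0.66 and Clca1 from 0.13 to 0.45. The ratio of Clca3 to Muc2 ran from -0.20 to 0.30 with a library left out and was -0.98 in the suffix libraries and 0.50 in the others. With a library left out, the ratio of Clca6 to Clca3 ran from -0.93 to -0.45, that of Clca6 to Krt20 from -0.29 to 0.0058, and Sgol1 from -0.69 to -0.29. The ratio of Clca6 to Clca3 was -0.22 in the suffix libraries, and Sgol1 was -0.17 (exact permutation p = 0.686) with library totals alone. AI747448 was 0.014 with library totals alone, 0.40 without suffix libraries, and -0.64 to 0.15 with a library left out. Ano4 was 0.081 with the mitochondrial-like covariate. Ano9 was 0.20 with totals alone, 0.026 with totals without the mitochondrial-like rows and the row AY036118, and 0.015 with that covariate. Ano10 was -0.12 with that covariate, -0.039 in the suffix libraries, -0.052 without the 3 libraries richest in mitochondrial-like rows, and -0.045 to 0.071 with a library left out. The causes were not tested.

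Libraries share replicate numbers across genotypes. Correlations of same-numbered libraries ran from -0.298 to 0.454, and replicate 3 alone matched best its own number. These values gave no clear sign of pairing by number but cannot exclude it, and the labels name no pairs. With the replicate number as a block, 0 genes and 0 members were called, and the Clca4 log2 change was 1.05 (adjusted p = 0.173 in edgeR). At a few CPM, depth limits Clca1, Clca2 and Clca5.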
